A study of Homo sapiens with 8 samples.

Results

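Gene expression in C4-2B cells given enzalutamide together with EPZ6438 was set against that in C4-2B cells given EPZ6438 alone. C4-2B is a castration-resistant human prostate cancer line derived from LNCaP cells. The comparison takes 4 of the 8 RNA sequencing libraries of the study, 2 for each group. It covers 11874 of the 26443 genes with values, those whose mean over the 8 libraries reached 1 FPKM (fragments for each kilobase of a gene, after scaling to the size of the library). On either side of that limit lay SESTD1, with a mean of 1.0003 FPKM, and DCBLD2, with 0.99949.

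The cells of the EPZ group received EPZ6438 at 1 uM for 7 days, and those of the Combination group received both agents for 7 days. Cells given enzalutamide alone (ENZ) received 10 uM, and control cells received DMSO, also for 7 days. No dose is stated for the combination itself. Every group is the same cell line, so the results describe 1 line in culture. Whether the libraries of a group stem from different cultures is not in the labels, and p-values then cover only the spread between libraries, which may be technical. Levels are given as mean FPKM ± SD (n = 2). Changes are differences in log2(FPKM + 1), fitted with limma, and p-values were adjusted by Benjamini-Hochberg over all genes tested. A gene is called higher, lower or changed, or said to have risen or fallen, where that adjusted p is under 0.05.

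The androgen receptor is a transcription factor that enters the nucleus when it binds androgen and activates genes of prostate secretion and lipid and polyamine metabolism, while other genes are repressed when it is active. Enzalutamide binds the receptor and blocks its activation, its entry into the nucleus and its contact with DNA. EZH2 is the catalytic subunit of Polycomb repressive complex 2 (PRC2), which methylates a lysine of histone H3 and keeps developmental genes silent, and EPZ6438 (tazemetostat) inhibits that activity. The comparison therefore asks what differed between cells given both agents and cells given the EZH2 inhibitor alone. Histone methylation was not examined here.

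The receptor binds DNA as a pair of receptors over 2 half-sites, and the promoters of KLK3, which encodes prostate-specific antigen, and of its neighbour KLK2 are textbook examples. The 250 bases before each start site are shown because both genes fell in this comparison and because their sequences are alike. They are the RefSeq windows on GRCh38.p14, read on the plus strand at chr19:50854665-50854914 for KLK3 and chr19:50873189-50873438 for KLK2, with capitals marking the 2 half-sites of a pair.
KLK3: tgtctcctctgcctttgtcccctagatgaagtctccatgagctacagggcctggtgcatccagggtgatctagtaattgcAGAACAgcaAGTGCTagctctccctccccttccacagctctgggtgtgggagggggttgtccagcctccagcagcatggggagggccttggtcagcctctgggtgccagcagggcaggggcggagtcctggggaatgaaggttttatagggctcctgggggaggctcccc
KLK2: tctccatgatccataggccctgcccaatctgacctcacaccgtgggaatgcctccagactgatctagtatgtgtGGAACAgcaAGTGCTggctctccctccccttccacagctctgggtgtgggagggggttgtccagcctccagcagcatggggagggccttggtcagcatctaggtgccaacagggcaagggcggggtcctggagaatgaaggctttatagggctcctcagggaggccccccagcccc
The pair searched was AGAACA, 3 bases and TGTTCT, a pattern that reads the same on both strands. The KLK3 pair begins at -170 from the start site and has 2 mismatches over the 12 fixed bases. The KLK2 pair begins at -176 and has 3 mismatches, a limit that was widened after its sequence was seen. Of 8787 tested genes with a promoter window of 300 bases, 0.421% held a pair with up to 2 mismatches and 5.01% one with up to 3. Among 786 genes at least 2-fold lower in Combination those shares were 0.636% and 5.98%, and among 419 genes at least 2-fold higher they were 0.716% and 5.01%. The half-site AGAACA on either strand lay in 8.35% of all windows, 9.29% of those of the lower genes and 10.0% of those of the higher genes. Of the 37 androgen-induced genes with a window, 4 held a half-site, 1 a pair with up to 2 mismatches and 5 a pair with up to 3. These matches describe the letters of short windows, not sites.

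The libraries of EPZ held about 24400000 and 22300000 fragments and those of Combination about 19300000 and 16400000, as read from the smallest steps of low FPKM. In a gene of 1 kilobase 1 fragment was then worth 0.041 to 0.0611 FPKM in these 4 libraries. Replicates correlated at r = 0.9961 in EPZ and 0.9934 in Combination across the genes tested, which are not independent replicates. Prostate epithelial markers were present in every library, with EPCAM between 84.7 and 86.0 FPKM in EPZ and between 58.8 and 60.5 in Combination. The 9 markers of blood cells summed to 10.6 and 10.9 FPKM in EPZ and 12.2 and 11.3 in Combination, nearly all of it CD68 (change 0.15, not called as deposited, and 0.26, called, after median-of-ratios scaling), while CD3E and HBB were listed at 0 in every library. The 11 markers of fibroblasts and endothelial cells summed to 4.03 and 3.61 FPKM in EPZ and 12.2 and 12.5 in Combination. COL1A1 made up most of that sum, at 2.88 and 2.79 FPKM in EPZ and 10.5 and 10.4 in Combination (change 1.58), and COL1A2 was listed at 0 in all 8 libraries. The part of such cells in the results was not tested. Of the genes tested, 391 had a mean under 1 FPKM in EPZ and 254 in Combination. In 92 only the Combination group had a mean of at least 1, so that those had to be higher there. That number leaves out genes such as UPK2, which also reached 1 FPKM in ENZ but passed the filter through its Combination level.

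Most measured genes changed when enzalutamide was added to EPZ. As deposited, 3463 genes (29.2%) were higher in Combination than in EPZ and 5187 (43.7%) were lower. Counts of list members below are to be read against these shares. At least 2-fold higher were 634 genes (5.34%), and at least 2-fold lower were 1051 (8.85%). Both Combination values lay above both EPZ values for 4395 genes (37%) and below them for 6110 (51.5%). FPKM of the 2 Combination libraries summed to 218646 and 224223, against 288954 and 296532 in EPZ, and the median change over all genes was -0.11. After median-of-ratios scaling, which centres that median near 0, 4242 genes (35.7%) were higher and 4428 (37.3%) lower. The share of calls that were higher thus moved from 40.03% to 48.93%, and it was 48.84% after quantile normalization. The same direction was called under both of the first 2 scalings for 7891 genes, 3463 higher and 4428 lower. Changes below are as deposited, and a change scaled by median of ratios lies about 0.1 above it. In bulk RNA, fewer cells of a type and less RNA per cell cannot be told apart.

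**Figure D1:**
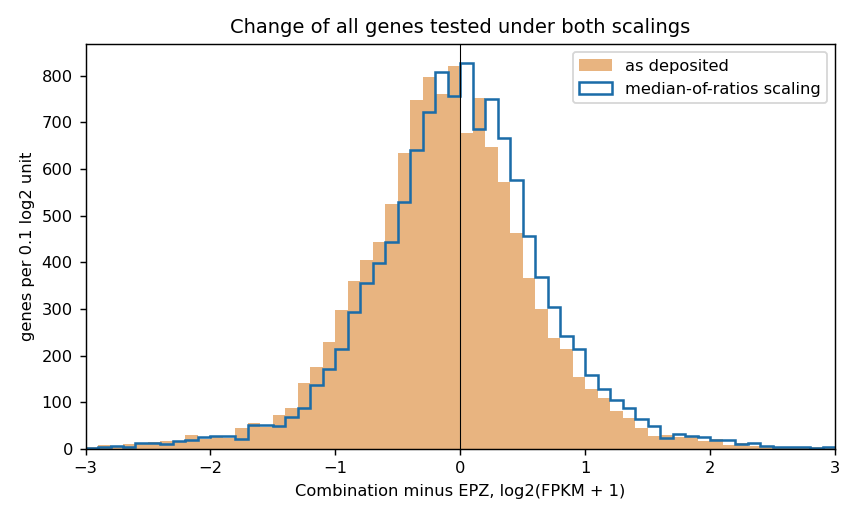
Number of genes (y axis) in bins of 0.1 of the log2 change from EPZ to Combination (x axis), for the 11874 genes tested, as deposited (filled) and after median-of-ratios scaling (outline). The deposited values lie slightly to the left, with a median of -0.11, and the tails on both sides remain under either scaling.

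Androgen-induced genes fell nearly throughout. Of 50 measured members of a list of 56, 47 fell, 2 rose and 1 did not pass, with a median change of -1.95 against -0.11 over all genes. The counts were 47 lower and 3 higher after median-of-ratios scaling. Both Combination values lay below both EPZ values for 47 of the 50 measured members and above them for 3, against 51.5% and 37% of all genes. Some of these genes were known from earlier results of these data, so their direction is no independent evidence.

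KLK3 stood at 2800 and 2803 FPKM in the EPZ libraries and at 383 and 400 in the Combination libraries. Its mean fell from 2801 ± 1.5 to 392 ± 12.2 FPKM, to 0.140 times the EPZ level (change -2.84, SE 0.0473, adjusted p = 3.58e-10). KLK2, a related secreted protease, stood at 299 and 308 FPKM in EPZ and at 29.5 and 27.1 in Combination, a change of -3.38 (SE 0.0705). The groups lay far apart for both genes. The 2 genes are similar over long stretches, so reads may have been split between them and each value is uncertain. Their windows, printed above, share a pair of half-sites at almost the same distance from the start.

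FKBP5, a co-chaperone of steroid receptors (GRCh38, chr6:35573585-35728583, minus strand), had the lowest change of all named genes. It stood at 77.7 and 82.6 FPKM in EPZ and at 4.70 and 4.28 in Combination, 0.0560 times the EPZ mean (change -3.89, SE 0.0714). The Combination level lay below that of cells given ENZ alone, which was 8.69 and 9.79 FPKM. SLC45A3, a membrane transporter of prostate epithelium (chr1:205657851-205680459, minus strand), went from 160 and 168 FPKM to 10.6 and 10.1 (change -3.86, SE 0.0736). TMPRSS2, a membrane serine protease, went from 381 and 396 FPKM to 86.1 and 88.4 (change -2.14, SE 0.0502). For TMPRSS2 the Combination level lay just below that of DMSO, at 92.3 and 90.1 FPKM, whereas for SLC45A3 it lay below the 52.6 and 52.9 FPKM of DMSO.

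EPZ means of these genes mostly lay above those of DMSO, for 47 of the 50 members. In Combination the mean lay below that of DMSO for 42 members, and below that of ENZ alone for 18. The list's summed FPKM were 8245 and 8449 in EPZ but 1847 and 1893 in Combination, beside 3941 and 4000 in DMSO and 1534 and 1523 with ENZ alone. KLK3 alone gave 2801 FPKM of the sum in EPZ and 392 in Combination.

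The remaining androgen-induced genes belong to secretion, lipid and polyamine metabolism and signalling. AZGP1, a secreted zinc-binding glycoprotein, went from 337 to 42.9 FPKM, and ELL2, a transcription elongation factor, from 39.9 to 5.95. PMEPA1, an inhibitor of TGF-beta signalling, went from 112 to 17.9 FPKM (change -2.58), and TRPM8, a cold-sensing ion channel, from 16.2 to 2.76 (change -2.19). The smallest losses among those that fell were those of RAB4A (change -0.65) and KRT8 (change -0.78). The 2 members that rose were named after their values were seen: ACPP, prostatic acid phosphatase, from 5.28 to 13 FPKM (change 1.16), and TSC22D3, a glucocorticoid-responsive factor, from 24.7 to 34.6 (change 0.47). STEAP2, a metalloreductase, stood at 105 and 117 FPKM (change 0.16) and passed only after median-of-ratios scaling (0.28).

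**Figure D2:**
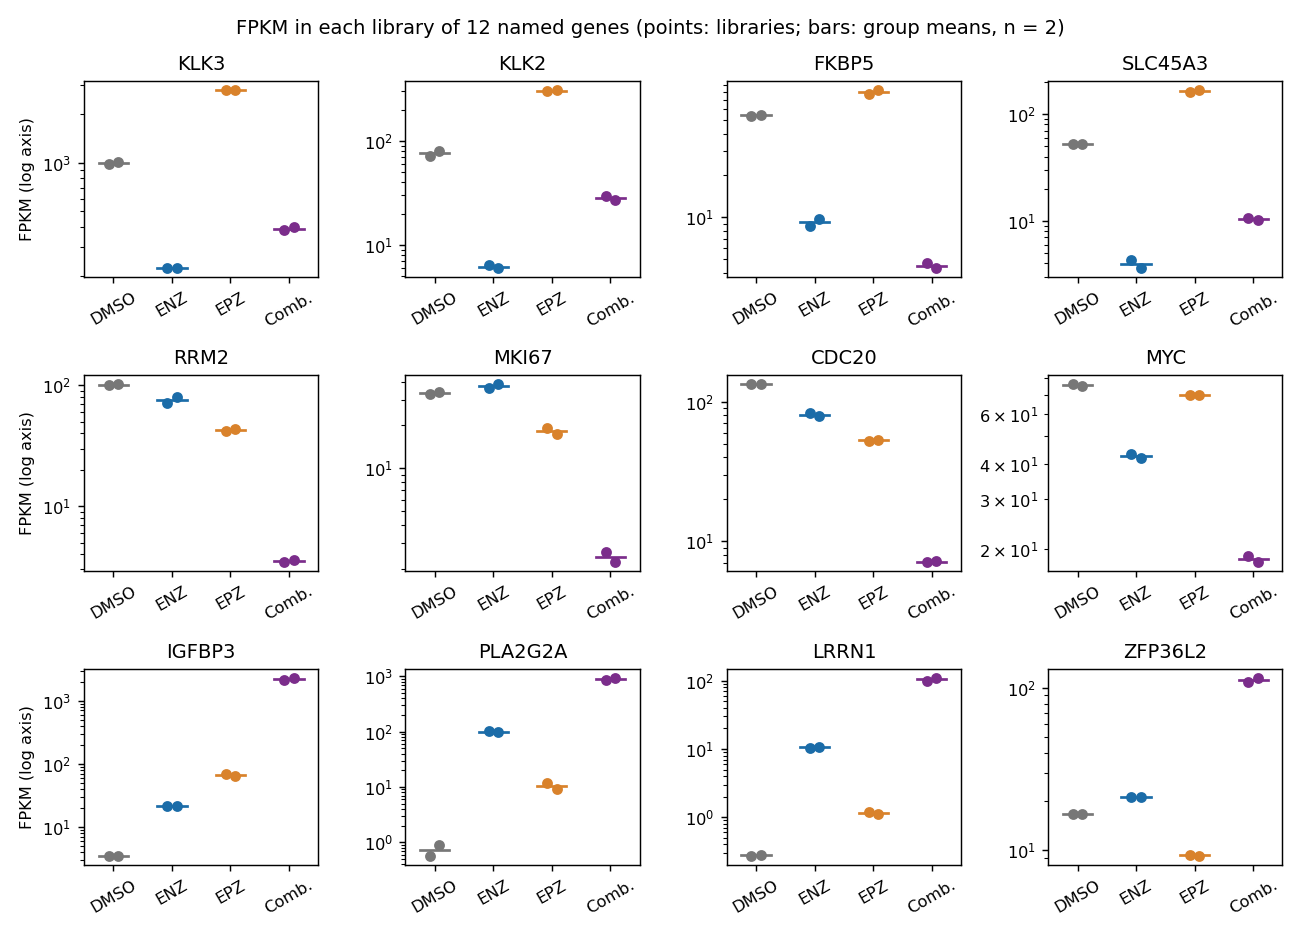
FPKM of 12 genes in each of the 8 libraries (log y axis, a separate scale for each gene), by treatment (x axis), with points for libraries and bars for group means (n = 2). KLK3, KLK2, FKBP5 and SLC45A3 fall with enzalutamide with or without EPZ, the proliferation genes RRM2, MKI67 and CDC20 are lowest in Combination, and IGFBP3, PLA2G2A, LRRN1 and ZFP36L2 are highest there.

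Genes that androgen represses went mostly the other way. Of 13 measured members of 21, 10 rose, 2 fell and 1 did not pass, with a median of 1.26 (1.98 with a pseudocount of 0.1, and 2.04 over the members with a mean of at least 5 FPKM). PLA2G2A, a secreted phospholipase (chr1:19975431-19980416, minus strand), stood at 11.7 and 9.37 FPKM in EPZ and at 844 and 948 in Combination, 85.0 times the EPZ mean and the highest change of all named genes (6.29, SE 0.115). LRRN1, a neuronal leucine-rich repeat protein (chr3:3799437-3847703, plus strand), stood at 1.21 and 1.11 FPKM in EPZ and at 97.5 and 111 in Combination (change 5.60, SE 0.0772). CAMK2N1, an inhibitor of a calmodulin-dependent kinase, stood at 22 and 24.5 FPKM and at 220 and 242 (change 3.26, SE 0.0709). In each of them every Combination value lay far above every EPZ value.

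FOLH1, which encodes prostate-specific membrane antigen, went from 58.9 and 62.9 FPKM in EPZ to 111 and 116.05 in Combination (change 0.89, SE 0.0578). DDC, an enzyme of amine synthesis, went from 16.4 to 70.4 FPKM (change 2.04) and ACKR3, a scavenging chemokine receptor, from 5.71 to 33.6 (change 2.36). The 2 members that fell were PRUNE2, from 17.4 to 3.41 FPKM (change -2.06), and UGT2B11, a steroid glucuronidation enzyme, from 3.15 to 0.292 (change -1.68). UGT2B15, of the same enzyme family, had means of 0.293 and 0.241 FPKM and was not called (change -0.05). Reads of the UGT2B genes are shared between close copies, so their single values are uncertain. Several members of this list were also known from earlier results of these data.

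Coregulators and lineage factors of prostate cells were mostly higher. Of 15 measured members of that list, 10 rose and 2 fell, with a median of 0.46, and 13 rose after median-of-ratios scaling. GATA2, a pioneer factor that opens sites for the receptor, stood at 71.0 and 71.3 FPKM and at 164 and 175 (change 1.24, SE 0.0633). Its Combination values lay above those of every other group. The coactivators NCOA3 (change 1.05) and NCOA2 (0.89) and the corepressor NCOR1 (0.54) rose as well. FOXA1 and HOXB13, lineage factors that bind beside the receptor, stood at 104 and 111 FPKM and at 83.6 and 85.8 and did not pass as deposited. SPDEF, an epithelial factor on the androgen-induced list too, fell from 191 and 194 FPKM to 51.6 and 53.1 (change -1.86, SE 0.0628), and KLF5 fell from 4.62 to 2.7 (change -0.60).

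Genes of cell division fell almost without exception. The G2/M and mitosis list fell in all 38 of its genes (median -2.09), and the list for G1/S and DNA replication in 41 of 42 (median -1.54). Against these stand the 43.7% of all genes that fell. The exception was POLE, a DNA polymerase subunit named after its value was seen. It had means of 12.7 FPKM in EPZ and 14 in Combination (change 0.13), and the deposited values of the 2 groups overlapped. It was called higher under both other scalings. In all 38 genes of the first list and all 42 of the second the Combination mean lay below the means of ENZ and of DMSO, and the EPZ mean lay below that of DMSO.

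RRM2, the regulatory subunit of ribonucleotide reductase (chr2:10120698-10131419, plus strand), stood at 41.8 and 43.3 FPKM in EPZ and at 3.44 and 3.58 in Combination, 0.0825 times the EPZ mean (change -3.27, SE 0.0649). MYBL2, a transcription factor of the late cell cycle, went from 42.7 and 45.8 FPKM to 3.90 and 4.34 (change -3.15, SE 0.0638). MKI67, which encodes the proliferation marker Ki-67 (chr10:128096659-128126385, minus strand), went from 18.9 and 17.2 FPKM to 2.62 and 2.22 (change -2.48, SE 0.0778). In each of them both Combination values lay far under both EPZ values.

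Genes of each step of the cycle fell. CDC45 (change -2.40) and CDT1 (change -2.24), which load and start the replicative helicase, fell from 15.2 to 2.06 and from 15.9 to 2.58 FPKM. E2F1, a driver of S phase genes, fell from 20.2 to 5.38 FPKM (change -1.74), and PCNA, the sliding clamp, from 44.1 to 14.9 (change -1.50). PLK1, a mitotic kinase, fell from 33.8 and 34.7 FPKM to 4.75 and 4.17 (change -2.69), and CDC20, which switches on the complex that starts anaphase, from 52.6 and 52.9 to 7.06 and 7.16 (change -2.73). BIRC5, which encodes survivin, fell from 25.3 to 3.2 FPKM (change -2.65). The smallest change on the mitosis list was that of CDC25C, -1.18.

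None of the 6 measured inhibitors of cyclin-dependent kinases rose, and 4 fell. Without the filter on low values 1 member of that list was called higher. CDKN1A, which encodes p21, stood at 52.0 and 53.1 FPKM in EPZ and at 39.4 and 41.6 in Combination (change -0.37, SE 0.0621, adjusted p = 4.27e-04), and its change was 0.08 and did not pass after quantile normalization. CDKN3 and CDKN2C fell by 1.94 and 1.03. CDKN1B had means of 19.9 and 16.9 FPKM and was not called (change -0.23).

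Homologous recombination genes, many of them expressed in S phase, fell in 17 of 21 cases, against 43.7% of all genes, with a median of -0.86. EXO1, a nuclease that resects DNA ends, stood at 6 and 5.96 FPKM in EPZ and at 0.584 and 0.618 in Combination (change -2.12, SE 0.0659). BRCA1 fell from 7.02 to 1.76 FPKM (change -1.54) and BRCA2 from 4.28 to 1.46 (change -1.10). BARD1, the partner of BRCA1 and the member that rose, went from 5.7 to 16.4 FPKM (change 1.39). For all 21 genes, BARD1 among them, the Combination mean lay below the means of ENZ alone and of DMSO. With ENZ alone, 15 of the 21 genes did not pass and 5 rose, BARD1 among them at 0.87.

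**Figure D3:**
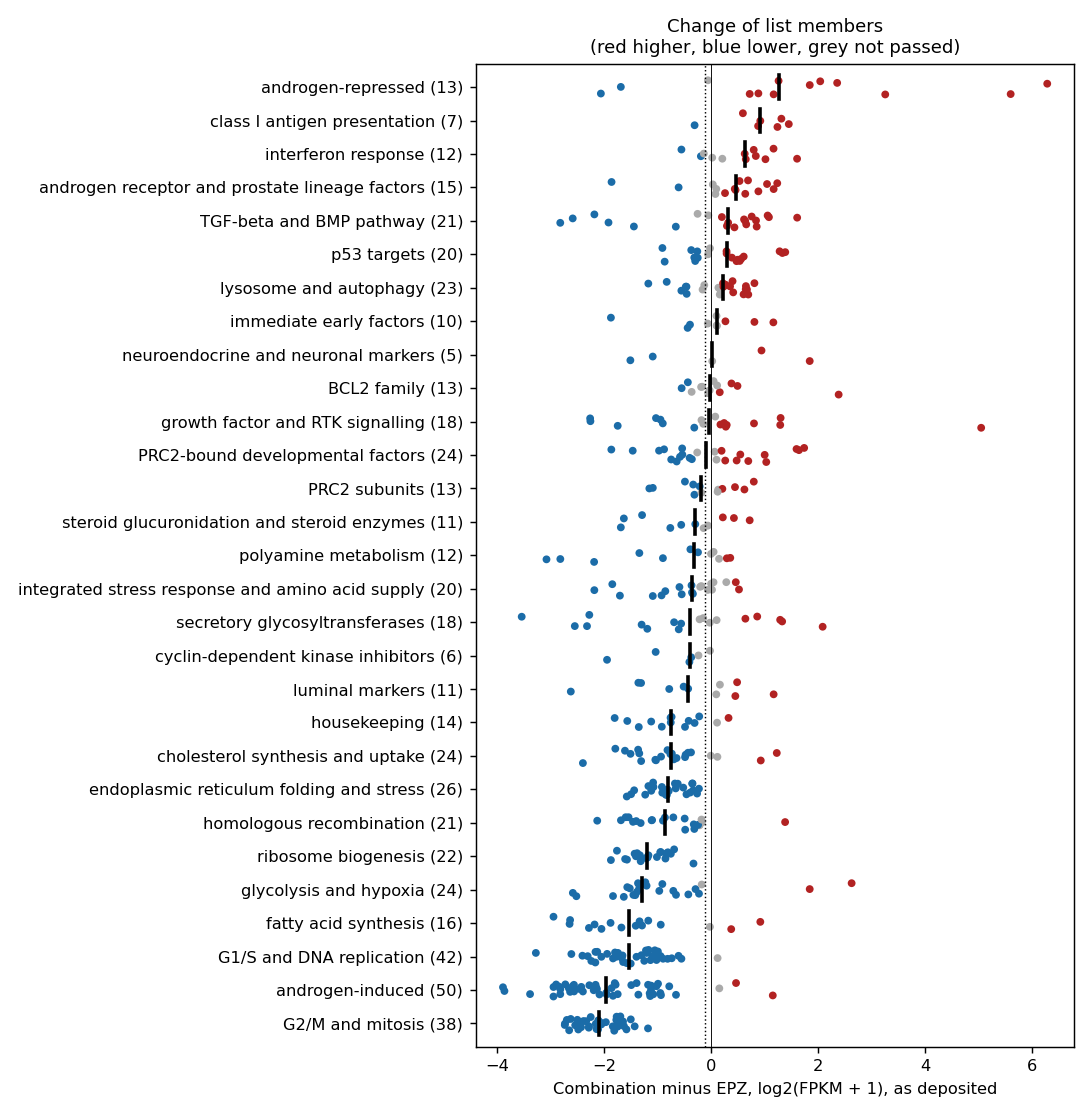
Log2 change from EPZ to Combination as deposited (x axis) of each measured member of the gene lists with at least 5 such members (y axis, number of members in parentheses), with a black bar at each list's median and a dotted line at the median of all genes, -0.11. Points are red where called higher, blue where called lower and grey otherwise. Medians of the mitosis, androgen-induced and replication lists lie well to the left, at -2.09, -1.95 and -1.54, and that of the androgen-repressed list to the right, at 1.26.

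EZH2, the target of EPZ6438, stood at 16.1 and 14.7 FPKM in EPZ and at 6.47 and 6.28 in Combination (change -1.15, SE 0.0720). In ENZ alone it stood at 23.4 and 26.3 FPKM and in DMSO at 26.2 and 25.4, groups that overlap. Of the 13 measured PRC2 genes, EZH2 among them, 4 were higher and 6 lower, near the shares over all genes (29.2% and 43.7%). The core subunits SUZ12 (change -0.33) and EED (-0.21) fell slightly, and EED did not pass after median-of-ratios scaling. JARID2, an accessory subunit, rose from 7.91 and 8.52 FPKM to 15.5 and 14.7 (change 0.80), and EZH1, the alternative catalytic subunit, from 4.99 to 8.24 (change 0.63).

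Developmental factors bound by PRC2 also moved in both directions. Only 24 of 50 listed genes passed the expression filter, and 10 of them rose and 11 fell, against 29.2% and 43.7% of all genes. Their median of -0.09 was near the -0.11 of all genes. ZIC2 rose from 4.32 to 16.8 FPKM (change 1.74), HOXC4 from 1.68 to 7.37 (1.65) and HOXA5 from 1.42 to 6.26 (1.60). DLX1 fell from 5.65 to 0.832 FPKM (change -1.86) and DLX2 from 3.14 to 0.506 (-1.46). All are homeobox or zinc finger factors of embryonic patterning.

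Every measured gene of protein folding in the endoplasmic reticulum fell. All 26 were lower as deposited, with a median of -0.80, and 23 after median-of-ratios scaling. The median was -0.34 after quantile normalization, with 19 lower and 1 higher. HSPA5, which encodes the chaperone BiP, went from 241 to 113 FPKM (change -1.08), CALR, calreticulin, from 825 to 478 (-0.79), and MANF, a stress-induced secreted factor, from 101 and 106 to 36.4 and 39.2 (-1.43). CREB3L4, a membrane-bound transcription factor of prostate secretory cells, went from 157 and 158 FPKM to 57.4 and 53.4 (change -1.49). With ENZ alone 3 were higher and 4 lower (median -0.02), against 27.9% higher and 28.8% lower over all genes. The difference between the 2 effects of enzalutamide was called, negative, for 25 of the 26.

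The amino acid supply and integrated stress response list was mixed, with 2 higher and 11 lower of 20. The amino acid transporters SLC1A5 (from 60.7 to 12.6 FPKM, change -2.18) and SLC7A5 (from 52.5 to 13.9, change -1.84) fell. ATF4, the transcription factor at the head of that response, had means of 80.7 and 81.9 FPKM and was not called (change 0.02), and DDIT3, a target that encodes CHOP, rose from 9.25 to 13.2 (change 0.46).

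Lipid synthesis genes fell. The fatty acid list had 13 lower and 2 higher of 16, at a median of -1.54. ACSL3, an acyl-CoA synthetase, went from 311 and 332 FPKM to 39.9 and 42.1 (change -2.94, SE 0.0604), and SCD, stearoyl-CoA desaturase, from 203 and 213 to 31.1 and 34.0 (change -2.64, SE 0.0584). FASN, fatty acid synthase, fell from 657 to 158 FPKM (change -2.05). The cholesterol list had 20 lower and 2 higher of 24, at a median of -0.74. The members that rose were ELOVL6 and ACACB of the first list and SC5D and TM7SF2 of the second, TM7SF2 from 139 to 328 FPKM (change 1.23).

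The main enzymes of polyamine synthesis fell. ODC1, ornithine decarboxylase, went from 714 and 803 FPKM in EPZ to 89.5 and 88.6 in Combination (change -3.07, SE 0.0603). SMS, spermine synthase, fell from 130 and 146 FPKM to 19.3 and 18.3 (change -2.81), and SRM, spermidine synthase, from 188 and 185 to 38.7 and 42.1 (change -2.18). Over the whole list 7 of 12 fell and 2 rose. After quantile normalization 5 fell and 5 rose.

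Glycolysis and hypoxia genes fell in 21 of 24 cases, with a median of -1.29 (-0.79 after quantile normalization). HK2, hexokinase 2, stood at 15.7 and 16.1 FPKM in EPZ and at 2.10 and 1.58 in Combination (change -2.58), and LDHA, lactate dehydrogenase A, at 167 and 188 and at 30.6 and 29.8 (change -2.51). GAPDH, often used as a loading control, stood at 1274 and 1285 FPKM and at 424 and 441 (change -1.56), although its pseudogenes share reads with it. EGLN3, an oxygen-sensing hydroxylase, rose from 2.30 and 2.45 FPKM to 20.1 and 19.7 (change 2.63), and the enolase ENO2 rose from 1.3 to 7.3 (change 1.85). Of 14 housekeeping genes 12 were lower and 1 higher as deposited, against 7 lower and 5 higher after quantile normalization.

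MYC, a transcription factor of growth, fell from 70.0 FPKM in both EPZ libraries to 18.9 and 18.0 in Combination (change -1.87, SE 0.0533). All 22 ribosome biogenesis genes on the list that holds it fell, with a median of -1.20, and 20 of the 22 also fell with ENZ alone. The nucleolar protein gene NCL went from 322 and 318 FPKM to 120 and 125 (change -1.38). FBL, which methylates ribosomal RNA, went from 155 and 148 FPKM to 50.2 and 50.5 (change -1.57).

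Antigen presentation genes rose. Of 7 measured class I genes 6 were higher and 1 lower (median 0.92). HLA-B stood at 6.53 FPKM in both EPZ libraries and at 19.2 and 20.1 in Combination (change 1.46), and HLA-C rose by 1.24. Class I genes share reads, so the single values are uncertain. B2M, the light chain of the same complex, fell from 83.5 to 67.3 FPKM (change -0.30) as deposited, whereas all 7 were called higher after quantile normalization. Of 12 interferon response genes 7 rose and 2 fell, among them IFI35 from 4.17 to 14.7 FPKM (change 1.61) and IRF1 from 0.389 to 2.13 (change 1.17). ISG15, an interferon-induced ubiquitin-like protein, had means of 31.4 and 28.5 FPKM and was not called (change -0.13). PTPRC and CD3E, markers of immune cells, were at or near 0 in these libraries.

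Lineage markers went both ways, to be read against 29.2% higher and 43.7% lower over all genes. Of 11 luminal genes 3 rose and 6 fell, with KRT18 from 218 FPKM in both EPZ libraries to 86.9 and 82.4 (change -1.36), and DPP4, a surface peptidase, from 46.2 and 50.3 to 6.90 and 7.13 (change -2.62). After median-of-ratios scaling 5 of the 11 luminal genes were higher and 6 lower. The list's median was -0.43 as deposited and 0.13 after quantile normalization. Of 10 basal genes only 4 were measured, and 3 of them rose, ITGB4 from 1.88 and 1.98 FPKM to 11.3 and 11.5 (change 2.08). Of 4 measured mesenchymal genes 2 rose and 1 fell. VIM rose from 11.3 to 24.6 FPKM (change 1.06), while SNAI2, a repressor of epithelial genes, fell from 4.93 to 0.365 (change -2.12). Of 20 neuroendocrine and neuronal genes 5 were measured, with 2 higher (ENO2 and TUBB3) and 2 lower (PEG10 and STMN1). The summed FPKM of 19 neuroendocrine genes in the table were 32.2 and 32.5 in EPZ and 33.0 and 33.6 in Combination.

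Outside the androgen-repressed list, the highest changes included a growth factor binding protein and genes that were nearly silent in EPZ. IGFBP3, an insulin-like growth factor binding protein (chr7:45912245-45921874, minus strand), stood at 69.2 and 64.1 FPKM in EPZ and at 2152 and 2331 in Combination (change 5.05, SE 0.0605). The uroplakin genes UPK2 and UPK1A, which encode membrane proteins of the bladder lining, went from 0.457 to 18.6 and from 0.202 to 12.1 FPKM (changes 3.75 and 3.44). All of UPK2, UPK1A and TNC passed the expression filter only through Combination, although UPK2 also had a mean of 1.34 FPKM in ENZ. TNC, the matrix protein tenascin C, went from 0.200 and 0.120 FPKM to 12.2 and 12.3 (change 3.51). On this scale the change of such low genes is understated: it was 5.58 for TNC and 5.34 for UPK1A with a pseudocount of 0.1. DEGS2, a sphingolipid hydroxylase, rose from 3.91 to 54.4 FPKM (change 3.49), and ZFP36L2, an RNA-binding protein that promotes messenger decay (chr2:43222402-43226609, minus strand), from 9.38 and 9.24 to 108 and 115.6 (change 3.45). MATN2, COLEC12 and MYLK rose by 3.32, 3.14 and 3.13.

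Several other genes fell steeply. The amino acid transporter SLC43A1 went from 104 FPKM in both EPZ libraries to 7.31 and 6.97 (change -3.69). PGC, a protease precursor of stomach and prostate, went from 25.8 to 1.23 FPKM (change -3.60), NPPC, a natriuretic peptide, from 45.1 to 3.17 (change -3.46), and CRISP3, a secreted cysteine-rich protein, from 28.5 to 2.15 (change -3.23). CYP4F8, a fatty acid hydroxylase, went from 22.9 and 21.9 FPKM to 1.25 and 0.705 (change -3.58). ST6GALNAC1, which adds sialic acid to mucin-type sugars, went from 62.5 and 65.9 FPKM to 4.76 and 4.48 (change -3.54). IGF1R, the receptor of insulin-like growth factors, fell from 22.1 and 20.7 FPKM to 3.71 and 3.69 (change -2.25).

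The effect of enzalutamide in the presence of EPZ was then set beside that of enzalutamide alone, 2 comparisons that share no library. Across the 11874 genes the changes correlated at r = 0.778 (Spearman 0.793), a description across genes that share libraries. Called in both were 5753 genes, of which 2407 rose in both and 3096 fell in both. Those 2407 made up 72.6% of the genes that rose with ENZ alone and 69.5% of those that rose with EPZ present, and the 3096 made up 90.6% and 59.7% of those that fell. The changes were wider with EPZ present: the median absolute change was 0.414 against 0.257.

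The difference between the 2 effects, tested as the interaction, was called positive for 1186 genes (9.99%) and negative for 3517 (29.6%). After median-of-ratios scaling these numbers were 1958 (16.5%) and 2461 (20.7%), so the positive share of calls moved from 25.22% to 44.31%, and to 49.33% after quantile normalization. Some genes had the same sign of change with and without EPZ, called or not, and a called interaction. Among these the change was larger with EPZ present, and called there, for 3157. It was smaller with EPZ present, and called with ENZ alone, for 335. After scaling these counts were 3046 and 327.

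**Figure D4:**
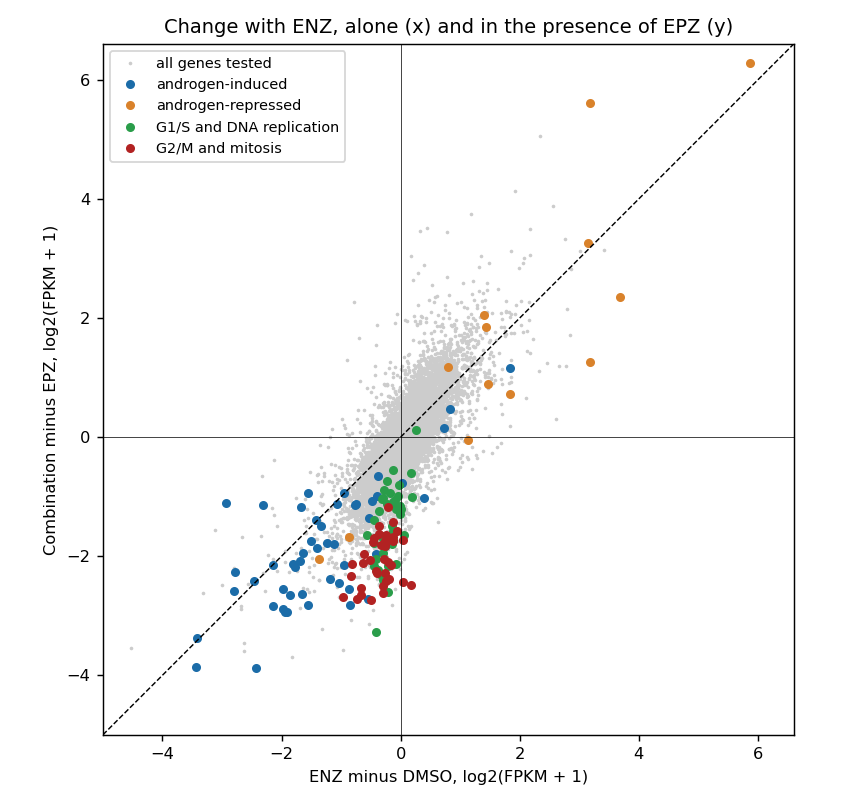
Log2 change with ENZ alone (ENZ minus DMSO, x axis) against log2 change with ENZ in the presence of EPZ (Combination minus EPZ, y axis) for 11874 genes, with 4 lists coloured and a dashed line of equal change. Most androgen-induced genes lie below 0 on both axes, with medians of -1.42 and -1.95, and 34 of the 50 have a negative interaction. The G2/M and G1/S genes have medians of -0.28 and -0.215 on the x axis and of -2.09 and -1.54 on the y axis.

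Proliferation genes fell further with EPZ present. With ENZ alone 28 of the 38 mitosis genes were already lower (median -0.28) and 23 of the 42 replication genes (median -0.215), against 28.8% of all genes. The interaction was negative for all 38 mitosis genes, with a median of -1.59, and for 41 of 42 replication genes, with a median of -1.31, under both scalings. MKI67 stood at 32.5 and 33.7 FPKM in DMSO and at 36.0 and 38.6 in ENZ, and did not pass in that comparison, whereas with EPZ present it fell by 2.48 (interaction -2.65, SE 0.110, adjusted p = 8.20e-07). RRM2 stood at 100 and 103 FPKM in DMSO and at 71.8 and 80.3 in ENZ, a change of -0.41, against -3.27 with EPZ present. EZH2, which did not pass with ENZ alone, had an interaction of -1.10, and MYC one of -1.06.

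Among androgen-induced genes the interaction varied from gene to gene. It was negative for 34 of the 50, positive for 5 and not called for 11. Over all genes 29.6% were negative and 9.99% positive. After median-of-ratios scaling it was negative for 30, positive for 6 and not called for 14, against 20.7% and 16.5% over all genes. KLK3 changed by -2.15 with ENZ alone and by -2.84 with EPZ present, and FKBP5 by -2.43 and -3.89. KLK2 changed by -3.42 and -3.38 and TMPRSS2 by -2.14 and -2.14, and for neither was a difference called as deposited. The interaction was 0.04 for KLK2, with a 95% interval from -0.19 to 0.26, and 0.00 for TMPRSS2, with an interval from -0.16 to 0.16. After quantile normalization both were called, at 0.31 (adjusted p = 0.0477) and 0.34 (adjusted p = 0.00229).

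Of the 13 measured androgen-repressed genes, the interaction was positive for 4 and negative for 7, with a median of -0.579. Over all genes these shares were 9.99% and 29.6%. The Combination mean of 8 of the 13 lay below that of ENZ alone. Among single genes that rose, IGFBP3 went from 3.45 FPKM in both DMSO libraries to 21.3 and 21.6 in ENZ, a change of 2.34, against 5.05 with EPZ present. ZFP36L2 went from 16.8 and 16.7 FPKM to 21.3 and 21.4 with ENZ alone, a change of 0.33, against 3.45. DAPK1, a death-associated kinase, was nearly silent in DMSO, ENZ and EPZ, at most 0.320 FPKM, and stood at 10.1 and 9.37 in Combination, through which alone it passed the expression filter. PLA2G2A went from 0.736 to 99.6 FPKM with ENZ alone, and its interaction of 0.42 was not called as deposited. That value depends on the setting: it was called at 0.59 (adjusted p = 0.0182) after median-of-ratios scaling and at 1.26 (adjusted p = 0.000206) after quantile normalization. It was also called without DMSO replicate 1 (0.56) and without EPZ replicate 1 (0.57), and was -0.53 and not called with a pseudocount of 0.1.

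A small set changed in opposite directions with and without EPZ. Of 250 such genes with a called interaction, 56 rose with EPZ present and fell with ENZ alone, and 194 did the reverse. After median-of-ratios scaling there were 208, of which 92 rose with EPZ present and fell with ENZ alone, and the rest did the reverse. The split between the 2 directions was thus much less uneven after scaling. ARHGAP6, a regulator of small GTPases, fell from 13.1 and 13.4 FPKM in DMSO to 9.12 and 9.61 with ENZ alone, and rose from 14.3 and 14.5 FPKM in EPZ to 26.1 and 26.8 in Combination. KLF7, IFRD1 and NR3C2, the mineralocorticoid receptor gene, moved in the same way. BMP7, a bone morphogenetic protein, did the reverse, rising from 3.46 and 3.44 FPKM in DMSO to 6.48 and 5.45 in ENZ and falling from 2.31 and 2.47 FPKM in EPZ to 1.15 in both Combination libraries. SYCE2, CHST2 and OAS3 moved like BMP7.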

How the data were processed

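Per the labels' protocols, a NEBNext Ultra kit turned total RNA of C4-2B cells into libraries, which an Illumina machine read. The authors deposited FPKM values, a column for each of 8 libraries. STAR and the hg38 build are named in the submitters' processing notes. The counter, annotation and strand use were not given in the sources used here. Antisense genes were therefore left unnamed, and overlap between genes was not examined. The short names in the labels tie each column to its sample.

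FPKM are not counts. Depth was estimated from low values: 95% to 96.9% of ratios between libraries over 801 to 1314 genes under 0.1 FPKM lay within 0.04% of ratios of whole numbers. A linear model of log2(FPKM + 1) was run in limma 3.58.1 (R 4.3.3) for 4 groups of 2 libraries, with a moderated two-sided test, an expression trend and a Benjamini-Hochberg threshold of 0.05 (5.47 prior and 4 residual degrees of freedom). It was checked on simulated data. Median-of-ratios scaling was run beside it. Tables, promoters and figures came from Python 3.11.15 (numpy 2.4.6, pandas 2.3.3, matplotlib 3.10.9). Gene positions are those of GENCODE on GRCh38, and promoter windows those of RefSeq, matched by symbol.

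The genes and the 33 gene lists were chosen with earlier results of these data known. Named genes are the 12 highest and 12 lowest changes called under both scalings with groups that do not overlap, up to 3 members of each list by p, 15 chosen genes, the 5 highest and 5 lowest interactions, and 4 in each direction that moved oppositely with and without EPZ. Pseudogenes, small RNAs, clone-named, antisense and Y-linked genes and symbols turned into dates were left out. Some genes under this rule are not reported here. Other list members are named as examples chosen after their values were seen. A gene on several lists is counted in each. Alternatives were a pseudocount of 0.1, no filter or a mean of at least 5 FPKM, both scalings, a fit of EPZ and Combination alone, a block for the replicate number, and a fit without each library.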

Additional observations from a re-analysis of the deposited data

Results flagged for a closer look

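For 29 genes the change with enzalutamide in the presence of EPZ was compared with the change with enzalutamide alone by the interaction in limma (Benjamini-Hochberg over all genes tested). It passed for 24 of them, 15 negative and 9 positive, under both scalings. The highest adjusted p was 0.0111 as deposited and 0.0455 after median-of-ratios scaling. Most of these genes were chosen because their interaction passed as deposited, as the highest, the lowest or those that moved oppositely with and without EPZ. Their call was thus fixed in advance. Among the 24 only FKBP5, EZH2, MYC, KLK3, FOLH1 and SLC45A3 were not chosen in that way. The number that passed therefore says nothing of how common such differences are.

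Negative values mean a deeper fall, or a smaller rise, with EPZ present, or a fall there beside a rise, called or not, with ENZ alone. Among proliferation and growth genes the interaction was -2.86 for RRM2, -2.65 for MKI67, -2.61 for MYBL2, -1.10 for EZH2 and -1.06 for MYC. Among androgen-regulated and secreted or metabolic genes it was -2.68 for PIP, -2.61 for CYP4F8, -1.46 for FKBP5, -0.687 for KLK3, -0.579 for FOLH1 and -0.415 for SLC45A3. The SLC45A3 call was lost with a pseudocount of 0.1, after quantile normalization and without EPZ replicate 2 (adjusted p = 0.112, 0.0633 and 0.054). CYP4F8 was near the floor without EPZ, at 1.22 and 0.957 FPKM in DMSO and 0.0817 and 0.0481 in ENZ, and its interaction was -1.58 with a pseudocount of 0.1. PIP was also low without EPZ, at no more than 0.225 FPKM. For genes lower with EPZ present and higher with ENZ alone it was -1.33 for SYCE2, -1.30 for BMP7, -1.25 for OAS3 and -1.22 for CHST2.

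Positive values were those of TNC (3.06), ZFP36L2 (3.12), DAPK1 (2.87), IGFBP3 (2.71) and UPK1A (2.67). TNC, DAPK1 and UPK1A passed the expression filter only through Combination, so that they had to be higher there. KLF7 (1.38), ARHGAP6 (1.30), IFRD1 (1.24) and NR3C2 (1.17) rose with EPZ present and fell with ENZ alone.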

How the results depend on the processing

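Genes higher numbered 5480 without a filter and, from a mean of 5 FPKM up, 1857. Those changed at least 2-fold upward were 962 when the pseudocount was 0.1, and 284 from that mean up, where fewer genes were tested and 1 androgen-repressed gene was lower, against 2. Positive interactions numbered 711 from that mean up, 1958 under median-of-ratios scaling and 2454 under quantile normalization, against 1186. Under both scalings 1 G1/S gene was higher, against 0. CDKN1A changed sign after quantile normalization (0.0823, adjusted p = 0.213), and the interaction of PLA2G2A did with a pseudocount of 0.1 (-0.53, adjusted p = 0.119, against 0.0182 and 0.000206 under the scalings); the cause was not tested. Leaving out each library in turn gave 790 to 1456 positive interactions, with 790 without EPZ replicate 2, and 0 to 1 higher G1/S genes, with 1 without Combination replicate 2. The uncalled interactions of KLK2 and TMPRSS2 ranged from -0.0403 to 0.113 and from -0.0277 to 0.0286, and both were called after quantile normalization (0.31, adjusted p = 0.0477, and 0.34, adjusted p = 0.00229). That of SLC45A3 lost its call with a pseudocount of 0.1 (-0.26, adjusted p = 0.112), after quantile normalization (-0.28, adjusted p = 0.0633) and without EPZ replicate 2 (-0.38, adjusted p = 0.054). With the replicate number as a block 3525 genes were higher and 5258 lower, and 1255 interactions were positive and 3687 negative. No count then moved by over 1.5 times. Deviations of libraries with the same number correlated at 0.0307 between EPZ and Combination, and at -0.0153 to 0.109 over all pairs of groups. The labels do not say what a number shares, and such values cannot settle whether the numbers pair libraries. With EPZ and Combination alone in the fit 3838 genes were higher and 5358 lower. Depth limits genes of few fragments, and with 2 libraries a group the spread rests on the pooled model.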

Other observations

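Further gene lists held members in both directions between EPZ and Combination, to be read against 29.2% higher and 43.7% lower over all genes. Of 23 lysosome and autophagy genes 12 rose and 6 fell, at a median of 0.23 against -0.11 over all genes, and 14 rose after median-of-ratios scaling. LAMP2, a lysosomal membrane protein, stood at 24.1 and 24.3 FPKM in EPZ and at 38.0 and 40.3 in Combination (change 0.67), and the protease gene CTSB at 39.6 and 40.8 and at 62.4 and 65.0 (change 0.65). WIPI1, a protein of early autophagosomes, fell from 14.2 to 5.76 FPKM (change -1.17). Of 20 p53 target genes 11 rose and 7 fell, with 4 lower after median-of-ratios scaling. BTG2 and TP53INP1, both inhibitors of growth, went from 10.6 to 27.3 FPKM (change 1.28) and from 16.8 to 45.6 (change 1.39), while the death receptor gene TNFRSF10B fell from 46.8 to 25.3 (change -0.86). Of 13 BCL2 family genes 4 rose and 2 fell. BMF, a pro-apoptotic member, went from 1.75 and 1.34 FPKM to 12.6 and 12 (change 2.39), and the pro-apoptotic BAK1 fell from 6.31 to 4.01 (change -0.55).

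The TGF-beta and BMP pathway had 13 higher and 6 lower of 21 genes, at a median of 0.32. The inhibitors of differentiation ID1 (from 43.3 to 134 FPKM, change 1.61) and ID3 (from 33.2 to 51.5, change 0.62) rose. The receptor BMPR1B fell from 10.5 and 10.6 FPKM to 0.689 and 0.596 (change -2.82), and THBS1, thrombospondin 1, from 108 and 105 to 27.1 and 27.8 (change -1.91). Of 18 growth factor and receptor kinase genes 8 rose and 7 fell, with 9 higher and 6 lower after median-of-ratios scaling. ERBB2 went from 52.5 to 131 FPKM (change 1.30) and EGFR, the epidermal growth factor receptor, from 32.1 to 16.2 (change -0.94). Of 18 glycosyltransferase genes 5 rose and 9 fell, with GALNT12 at 2.09 and GALNT7 at -2.32. Of 11 steroid enzyme genes 3 rose and 6 fell. Of 10 immediate early genes 3 rose and 3 fell, with 6 higher after median-of-ratios scaling, KLF4 from 2.12 to 6.02 FPKM (change 1.17) and JUN from 15.9 to 28.7 (change 0.81).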
